A study of Mus musculus with 8 samples.

Results

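The histone genes of this data set are the 90 rows, of 38918 in the deposited table, whose symbol begins with Hist1h, Hist2h, Hist3h, Hist4h, H2af, H3f or H1f. The rule itself reads names only. The 70 rows of the Hist1 to Hist4 loci are the replication-dependent histone genes, and the 20 rows named H2af, H3f or H1f are the variant (replacement) histone genes and their pseudogenes. RNA came from BMiFLT3 (15-3) cells, a line of pro-B cells from a mouse B-cell precursor leukaemia. Cells were infected with a retroviral construct for Klf2, a zinc-finger transcription factor, or with one for BFP, a fluorescent protein, as the control. The column names of the Klf2 lanes also carry BFP. RNA with a poly(A) tail was selected and sequenced, and each construct is 1 library run on 4 lanes, so no difference below has a replicate and no p-value is given. This is a single line, and with RNA from many cells at once, fewer cells of a type and less RNA per cell cannot be told apart.

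Histones are the proteins around which DNA is wound. The core histones H2A, H2B, H3 and H4 form the nucleosome and the linker histone H1 binds where DNA enters and leaves it. Replication-dependent histone genes lie in clusters of many near copies, mostly without introns, and are transcribed in S phase, when new DNA has to be packaged. Their mRNAs are, unlike those of nearly all other genes, not polyadenylated: they end in a short stem-loop that is bound by the protein SLBP and cut by a complex containing the U7 snRNA. Variant histone genes such as those of H3.3, H2A.Z and macroH2A are mostly single genes with polyadenylated mRNA, made throughout the cell cycle. Some replication-dependent genes are also known to make a longer, polyadenylated transcript that runs past the stem-loop, particularly in cells that leave the cycle. Poly(A) RNA therefore reports on polyadenylated transcripts, which for the replication-dependent genes are a part of what is made.

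The stem-loops are shown first because this is where replication-dependent histone mRNAs without a poly(A) tail end. The stem-loop letters, GG, any 3 bases, TT, any base, T, any base, A, any 3 bases and CC, were searched on the sense strand in the first 150 bases after the stop codon of each GENCODE M21 protein-coding transcript (GRCm38). They were found for 46 of 67 replication-dependent genes matched to such a transcript, in 8 versions, at 21 to 58 bases past the stop codon. Another 13 of the 67 have no annotated base after the stop codon to search. Hist1h2af and Hist1h2ah have 1 and 2 bases there, too few for a match. Of 20884 other protein-coding genes 63 held a match. Examples follow in lower case with the 16 bases of the stem-loop in capitals and 5 bases on each side.
Hist1h1c, chr13:23739507-23739532, plus strand: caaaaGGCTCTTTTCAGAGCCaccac
Hist2h3c1, chr3:96247322-96247347, plus strand: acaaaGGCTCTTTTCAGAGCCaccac
Hist1h3b, chr13:23752815-23752840, plus strand: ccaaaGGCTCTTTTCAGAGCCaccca
Hist1h2bb, chr13:23747198-23747223, plus strand: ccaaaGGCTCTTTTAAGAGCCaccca
Hist1h4i, chr13:22040961-22040986, minus strand: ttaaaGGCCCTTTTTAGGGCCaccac
H2afx, chr9:44335235-44335260, plus strand: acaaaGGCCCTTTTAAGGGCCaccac
The version of Hist1h1c is shared by 26 of the 46 genes, none of them for H4. All 12 H4 genes with a match have GGCC or GGTC at the start of the stem, as Hist1h4i has. H2afx, which encodes the damage-signalling variant H2A.X, was the only variant gene with a match, 1 of 15 matched variant genes. No match was found for Hist2h2be or Hist1h2bc, and this says only that these letters are not in that window.

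The libraries held 30835450 exon reads (Klf2) and 30133978 exon reads (BFP). Klf2 itself had 842, 816, 852 and 854 reads in the 4 Klf2 lanes, against 88, 82, 73 and 71 reads in the 4 BFP lanes. Below, CPM is the exon reads of a row divided by the TMM-scaled library size in units of 1000000 reads, the ratio is Klf2 over BFP in CPM, and the brackets after a ratio hold its exact 95% interval, which covers counting error only. A gene is called higher or lower when its ratio is at least 2 in that direction and the interval leaves out 1, among rows with at least 1 CPM in either library. Of 14 pro-B-cell markers listed, 13 were in the table and 9 of these had 1 CPM or more, Cd79a among the high ones. None of the 9 was called, and the interval lay above 1 in 2 (Igll1 and Vpreb1) and below 1 in 7, while Rag1, Rag2, Kit and Dntt had at most 9 reads in either library. Over all rows with at least 1 CPM, 8.12% were called, and the interval lay above 1 in 37.1% and below 1 in 37.3%.

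Nearly all histone reads came from the variant genes. Histone rows took 87938 exon reads in the Klf2 library, of which 1352 were replication-dependent, and 78021 in the BFP library, of which 2292 were replication-dependent. The replication-dependent share of histone reads was thus 1.54% in the Klf2 library (exact binomial interval 1.46 to 1.62) and 2.94% in the BFP library (2.82 to 3.06). For core histone H3, the H3.3 genes H3f3a and H3f3b held 99.7% of reads in the Klf2 library and 99.4% in the BFP library. For H2A the replication-dependent rows held 0.176% (Klf2) and 0.369% (BFP). For linker H1 they held 11.6% (Klf2) and 14.7% (BFP), and the rest was H1f0.

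The sum of replication-dependent histone reads was lower in the Klf2 library and the sum of variant histone reads was higher. The replication-dependent sum was 307, 351, 352 and 342 reads in the 4 Klf2 lanes, against 546, 588, 598 and 560 reads in the 4 BFP lanes. Every Klf2 lane was below every BFP lane, although lanes of a library are repeat runs and not replicates. The sum was at 45.2 CPM in the Klf2 library and 73.7 CPM in the BFP library, a ratio of 0.614 (0.573 to 0.657). On uniquely placed reads, 1077 in the Klf2 library and 1753 in the BFP library, the ratio was 0.641 (0.594 to 0.692). The variant sum was at 2898 CPM (Klf2) and 2435 CPM (BFP), a ratio of 1.19 (1.18 to 1.20). On uniquely placed reads it was 1.21 (1.19 to 1.22). Of the 8 variant rows with at least 1 CPM, 5 had an interval above 1 and 3 below, where all rows had 37.1% above and 37.3% below. Among the 5, H3f3a and H3f3b had ratios of 0.987 and 0.991 without TMM scaling.

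Of the 90 rows, 19 reached 1 CPM in either library, 8 of the variant rows and 11 of the replication-dependent rows. No reads in exons were found for 16 rows, including 5 for which the table lists no exon, and for a row with exons this allows up to 0.0973 CPM in the Klf2 library and 0.0996 CPM in the BFP library. None of the 8 variant rows was called, and at a limit of 1.5-fold 2 were higher and 1 lower, where 10.2% of all rows were higher and 13.9% lower. Among the 11 replication-dependent rows 7 were called lower and 1 higher. Over all 10850 rows with at least 1 CPM, 5.67% were called lower and 2.45% higher, 8.12% in either direction. These 11 rows were partly selected by the difference itself: 6 reached 1 CPM only in the BFP library and 1 only in the Klf2 library, so their count is a description. Of the 8 replication-dependent rows whose mean over both libraries was at least 1 CPM, 5 were called lower and 1 higher. The share over all rows was not computed at this floor, so this count too is a description. The median log2(CPM + 1) difference was -0.59 over the 11 rows, 0.07 over the 8 variant rows and -0.01 over all rows with at least 1 CPM. The median over the variant rows was -0.02 without TMM scaling. With no floor, over all 64 replication-dependent rows with reads, the median was -0.04.

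**Figure D1:**
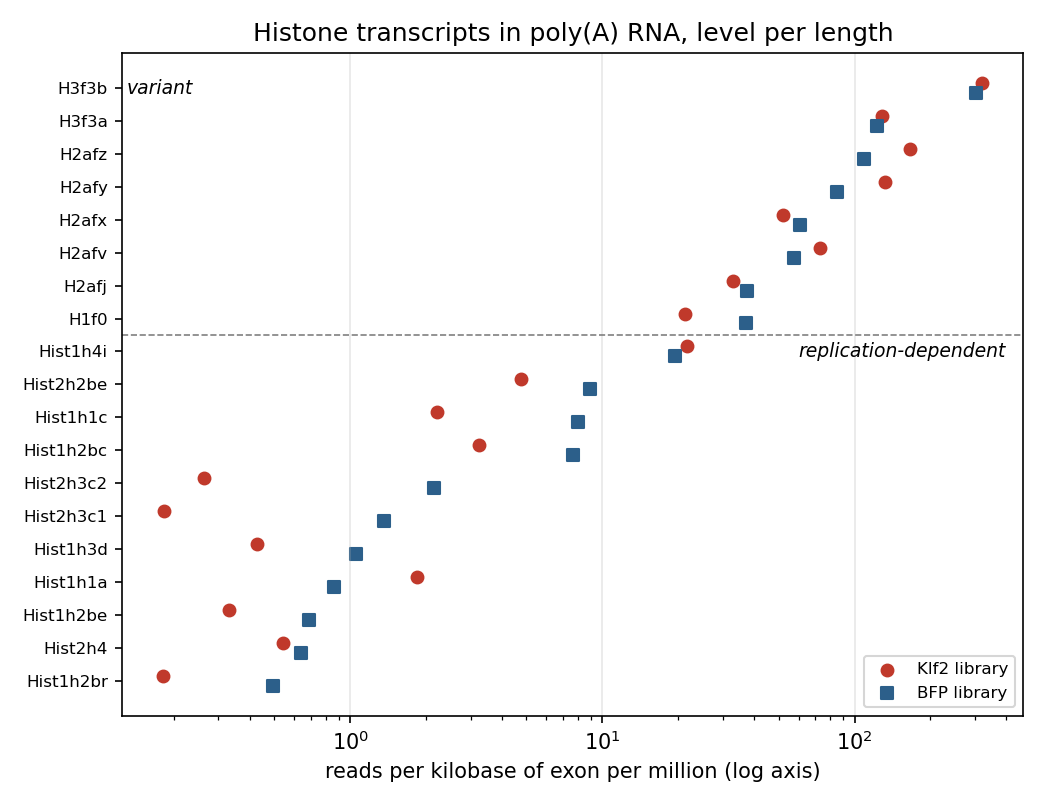
Level per exon length of the 19 histone rows with at least 1 CPM, in reads per kilobase of exon per 1000000 scaled exon reads on a log axis, with circles for the Klf2 library and squares for the BFP library (1 library each, no error bars). The variant genes above the dashed line run from 21.3 (H1f0, Klf2) to 321 (H3f3b, Klf2), while Hist1h4i is the only replication-dependent gene near that range.

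Among the variant H2A genes, H2afy and H2afz had the highest ratios. H2afy encodes macroH2A1, a large H2A variant with an additional macro domain that is known from the inactive X chromosome and from repressed genes. It lies on chromosome 13 (56073619 to 56136361, mm10, minus strand in GENCODE M21) and had 6648, 6634, 6783 and 6767 reads in the Klf2 lanes, against 4520, 4506, 4394 and 4561 reads in the BFP lanes. All 4 Klf2 lanes were above all 4 BFP lanes. Its ratio was 1.55 (1.52 to 1.58), under the limit of 2. H2afy alone gave 62.2% of variant H2A reads in the Klf2 library and 56.9% in the BFP library. With intron reads included the ratio was 1.32.

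H2afz and H2afv encode the H2A.Z proteins, which are found around the start sites of genes. H2afz (chromosome 3, 137864487 to 137866922) had a level of 295 CPM with Klf2 and 193 CPM with BFP, a ratio of 1.53 (1.48 to 1.58). Only 10.8% of its reads in the Klf2 library and 13.4% in the BFP library were uniquely placed, and on those the ratio was 1.24 (1.13 to 1.36). H2afz is therefore uncertain in size. H2afv (chromosome 11, 6427229 to 6444443), with all reads uniquely placed, was at 119 CPM (Klf2) and 94.3 CPM (BFP), a ratio of 1.26 (1.20 to 1.33).

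H2afx and H2afj lay on the other side of 1. H2afx, the gene of H2A.X shown above with its stem-loop, had 479, 568, 514 and 549 reads in the Klf2 lanes, against 629, 666, 599 and 661 reads in the BFP lanes. No Klf2 lane reached the lowest BFP lane. The ratio was 0.859 (0.811 to 0.911). H2afj (chromosome 6, 136808248 to 136810074), the gene of the variant H2A.J, was at 60.3 CPM (Klf2) and 68.1 CPM (BFP), a ratio of 0.884 (0.830 to 0.942), and its lanes overlapped between the libraries. For all 8 variant rows the intervals left out 1, 5 above and 3 below, where 37.1% of all rows with at least 1 CPM had an interval above 1 and 37.3% below.

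The H3.3 genes had ratios close to 1. H3f3a (chromosome 1, 180800832 to 180813943) and H3f3b (chromosome 11, 116021912 to 116027962) encode the replacement histone H3.3, which is deposited outside replication. H3f3b was the most abundant histone transcript per length, at 321 reads per kilobase per 1000000 reads in the Klf2 library and 304 in the BFP library. Its ratio was 1.06 (1.04 to 1.07), and without TMM scaling it was 0.991. For H3f3a the ratio was 1.05 (1.03 to 1.08), and it was 0.987 without TMM scaling and 0.992 on the 8.24% (Klf2) and 8.75% (BFP) of its reads that were uniquely placed. The direction of these 2 genes thus depended on the scaling or the reads used. Most reads of H3f3a are shared with other places in the genome, and its row overlaps Gm16067 and Gm17275.

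The linker histone genes H1f0 and Hist1h1c had fewer reads in the Klf2 library. H1f0 encodes H1.0, a replacement linker histone that is known to accumulate in cells that have stopped dividing (chromosome 15, 79028212 to 79030498). It had 368, 363, 370 and 356 reads in the Klf2 lanes, against 640, 663, 658 and 683 reads in the BFP lanes. The lanes of the libraries did not overlap. The ratio was 0.573 (0.538 to 0.612), above the limit of 0.5 for a call, with 100% of reads uniquely placed. Hist1h1c encodes the replication-dependent linker histone H1.2 (chromosome 13, 23738807 to 23740366). It had 26, 33, 16 and 28 reads in the Klf2 lanes, against 95, 107, 100 and 86 reads in the BFP lanes. It was called lower, at 3.45 CPM (Klf2) against 12.5 CPM (BFP), a ratio of 0.276 (0.220 to 0.344). Hist1h1c gave 103 of the 191 replication-dependent H1 reads in the Klf2 library and 388 of the 454 in the BFP library. Of the 6 replication-dependent H1 rows, 3 had a higher CPM in the Klf2 library and 2 a lower one. Hist1h1a, the gene of H1.1 (chromosome 13, 23763668 to 23764414), was the only histone row called higher, with 41 reads in the Klf2 library and 20 in the BFP library and a ratio of 2.13 (1.22 to 3.84). Without lane 3 its ratio was under 2, with an interval of 0.920 to 3.66, and it was not called.

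**Figure D2:**
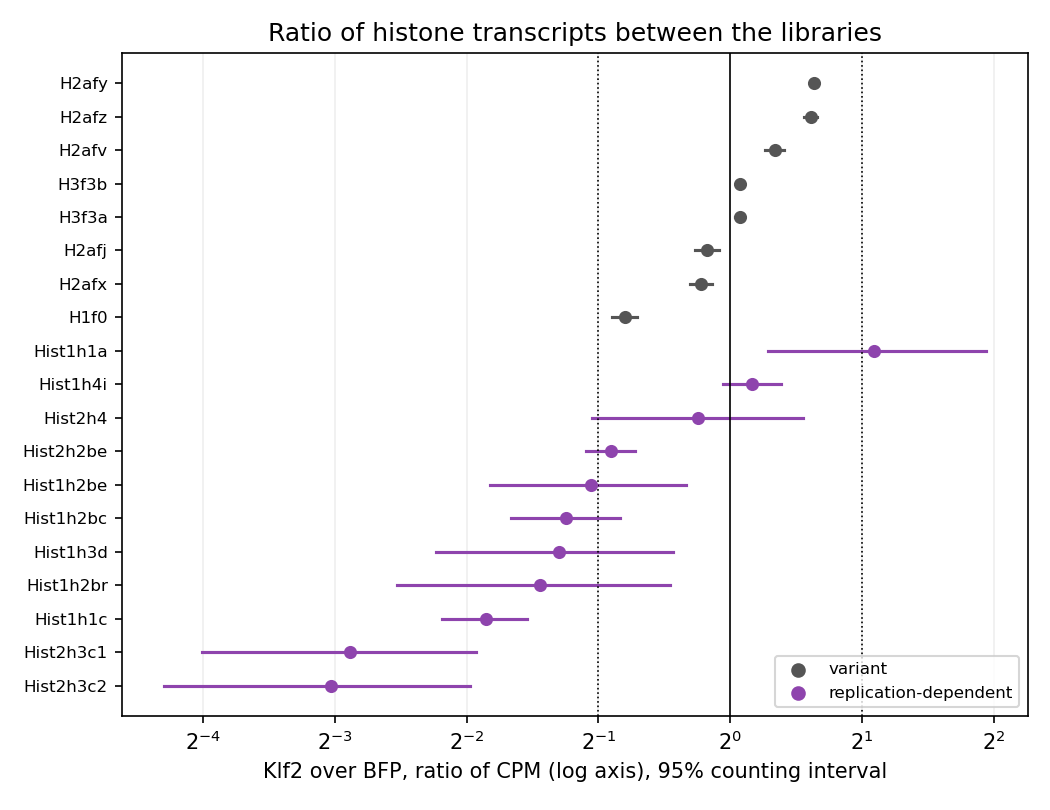
Ratio of CPM, Klf2 over BFP, on a log axis for the 19 histone rows with at least 1 CPM in either library, with the exact 95% interval of counting error as a line and dotted lines at 0.5 and 2. Variant genes (grey) lie between 0.573 (H1f0) and 1.55 (H2afy), and 7 replication-dependent genes (purple) lie below 0.5.

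The replication-dependent H2B sum was lower in the Klf2 library, while its rows were evenly split, with 9 higher and 9 lower in CPM. Hist2h2be, on chromosome 3 (96221121 to 96223738), was the replication-dependent row with the most reads and has a long exon of 2618 bases in the table. It had 90, 84, 96 and 103 reads in the Klf2 lanes, against 178, 176, 192 and 182 reads in the BFP lanes. The lanes did not overlap, and the ratio of 0.533 (0.469 to 0.605) was just short of a call. Hist1h2bc, on chromosome 13 (23684199 to 23692488), has 2 exons, whereas 61 of the 70 rows have 1. Its level was 2.38 CPM with Klf2 and 5.63 CPM with BFP, a ratio of 0.422 (0.316 to 0.559), and was called lower. Reads across its exon junction numbered 16 (Klf2) and 37 (BFP), and junction reads were found for only 3 of the 70 replication-dependent rows.

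The remaining H2B rows with a call rested on few or shared reads. Hist1h2be had 24 reads in the Klf2 library and 52 in the BFP library, a ratio of 0.480 (0.283 to 0.793), and without lane 4 it was 0.547 and not called. Its deposited row has 4 exons between 23583742 and 23621124 on chromosome 13 and overlaps Gm11398, and with intron reads the ratio was 1.17. Hist1h2br had 12 reads (Klf2) and 34 (BFP), none of them uniquely placed. Summed with its near copy Hist1h2bq it had 18 and 59 reads, a ratio of 0.317 (0.176 to 0.546). Over all 19 H2B rows the ratio was 0.528 (0.475 to 0.587), from 535 reads in the Klf2 library and 1054 in the BFP library. Hist2h2be and Hist1h2bc held most of these reads, and without them, a division made after seeing the values, the ratio was 0.627 (0.478 to 0.819) on all reads and 0.838 (0.572 to 1.22) on uniquely placed reads.

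The H3 sum was also lower in the Klf2 library, and this rested on 3 of its 12 rows. Hist2h3c1 and Hist2h3c2, neighbouring copies on chromosome 3, had 10 and 8 reads in the Klf2 library, against 77 and 68 reads in the BFP library. Their ratios were 0.135 (0.0623 to 0.262) for Hist2h3c1 and 0.122 (0.0508 to 0.255) for Hist2h3c2. For Hist2h3c1 none of the reads were uniquely placed, and for Hist2h3c2 15 were, all in the BFP library. Summed with their copy Hist2h3b, they had 32 reads (Klf2) and 154 (BFP), a ratio of 0.216 (0.143 to 0.318). Hist1h3d (chromosome 13, 23575763 to 23577011) had 16 reads (Klf2) and 41 (BFP), a ratio of 0.406 (0.213 to 0.739), and without lane 2 its interval reached 1.01, which ended the call. The 12 H3 rows together had a ratio of 0.544 (0.436 to 0.676), with 24.2% (Klf2) and 24.1% (BFP) of reads uniquely placed. In CPM 8 of the 12 rows were higher in the Klf2 library and 4 lower. The 9 rows other than Hist2h3c1, Hist2h3c2 and Hist1h3d, set apart after seeing the values, had 94 reads in the Klf2 library and 59 in the BFP library, a ratio of 1.66 (1.18 to 2.34).

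Most H4 reads came from 1 gene and H2A reads were few. Hist1h4i, on chromosome 13 (22040816 to 22041352), gave 348 of the 422 H4 reads in the Klf2 library and 323 of the 422 in the BFP library. Per exon length it was at 21.7 reads per kilobase per 1000000 reads in the Klf2 library and 19.3 in the BFP library, the highest level of any replication-dependent row. Its ratio was 1.12 (0.961 to 1.31), and 1.37 (1.14 to 1.65) on uniquely placed reads. Hist2h4 had 26 reads (Klf2) and 32 (BFP), a ratio of 0.845 (0.484 to 1.46). The 13 H4 rows had a ratio of 1.04 (0.907 to 1.19) on all reads and 1.27 on uniquely placed reads, with an interval above 1. Without Hist1h4i the H4 rows had 74 reads (Klf2) and 99 (BFP), a ratio of 0.778 (0.568 to 1.06), and 10 of all 13 rows had a lower CPM in the Klf2 library. The 20 H2A rows held only 76 reads (Klf2) and 117 (BFP), and none reached 1 CPM. Their ratio was 0.676, with an interval up to 0.910, on all reads and 1.07 (0.678 to 1.69) on uniquely placed reads. In H2A, 29 of the BFP reads and 5 of the Klf2 reads were on Hist2h2aa1 and Hist2h2aa2, a pair of copies with no uniquely placed read.

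**Figure D3:**
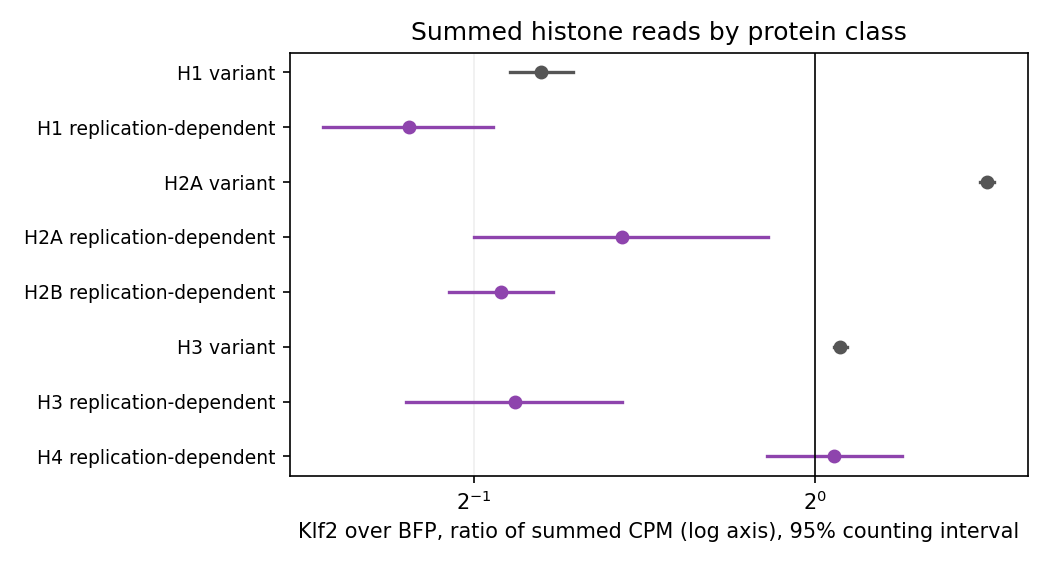
Ratio of summed CPM, Klf2 over BFP, by histone class on a log axis, with the exact 95% interval of counting error as a line and the variant rows in grey. The H1, H2B and H3 replication-dependent sums lie at 0.438, 0.528 and 0.544, the H4 sum at 1.04 and the variant H2A sum at 1.42. Most reads of the replication-dependent H1 sum were on Hist1h1c.

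Replication-dependent reads were concentrated in genes with a long annotated 3' end. Genes were divided by the number of bases that any GENCODE M21 protein-coding transcript has after the stop codon, more than 150 being a long end. This division was made after the values had been seen. The 27 genes with a long end held 84.5% of replication-dependent reads in the Klf2 library and 91.5% in the BFP library, and 10 of the 11 rows with at least 1 CPM. These shares and CPM are not scaled to exon length, and a longer row collects more reads at the same level. A stem-loop match was found in 23 of the 27 genes with a long end and 23 of the 40 with a short end. Of these 40, 13 have no annotated base after the stop codon, and Hist1h2af and Hist1h2ah have 1 and 2. Those genes could not hold a match, so the 2 counts are not alike. The long-end genes without one were Hist2h2be, Hist1h2bc, Hist1h2bq and Hist1h2br. In Hist1h1c the annotated transcript goes on for 840 bases after the stem-loop printed above, in Hist2h3c1 for 1167 bases and in Hist1h4i for 330 bases. In Hist1h3b it stops 51 bases after it and in Hist1h2bb 23 bases after it. The polyadenylation letters AATAAA occur after the stop codon in 18 of the 27 genes with a long end and 1 of the 40 with a short end. They were searched over all annotated bases after the stop codon, so a long end has more room for them. This contrast therefore follows in part from the division itself.

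The sum of the long-end genes was lower in the Klf2 library, and the interval of the short-end sum held 1 on all reads. Genes with a long end had 249, 296, 292 and 305 reads in the Klf2 lanes, against 488, 548, 548 and 514 reads in the BFP lanes. Their ratio was 0.566 (0.527 to 0.609). The 40 genes with a short end had 55, 55, 60 and 37 reads in the Klf2 lanes, against 53, 39, 44 and 43 reads in the BFP lanes, and these lanes overlapped. Their ratio was 1.20 (0.980 to 1.48) on all reads, and 1.66 (1.23 to 2.25) on the 116 (Klf2) and 73 (BFP) reads that were uniquely placed. On all reads the short-end ratio was 1.42 (1.14 to 1.78) with a limit of 100 bases and 1.17 (0.967 to 1.42) with 300. Without lane 4 it was 1.30 (1.03 to 1.64), and without Hist1h1a 1.09 (0.869 to 1.36). Whether its interval held 1 thus depended on these choices. Limited to genes with a stem-loop match, the ratio was 0.623 (0.566 to 0.686) for the 23 long-end genes and 0.982 (0.741 to 1.30) for the 23 short-end genes, of which 10 were higher and 11 lower in CPM. On uniquely placed reads these short-end genes had a ratio of 1.77 (1.11 to 2.88). For the 4 long-end genes without a match the interval of the ratio was 0.446 to 0.559. Among rows below 1 CPM in both libraries, the long-end genes had a ratio of 0.873 (0.698 to 1.09) and the short-end genes 1.09 (0.869 to 1.36). Without Hist1h1c and Hist2h2be, the pair with the most BFP reads, the ratio of the long-end genes was 0.706 (0.639 to 0.779), and on uniquely placed reads 0.886 (0.784 to 1.002).

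**Figure D4:**
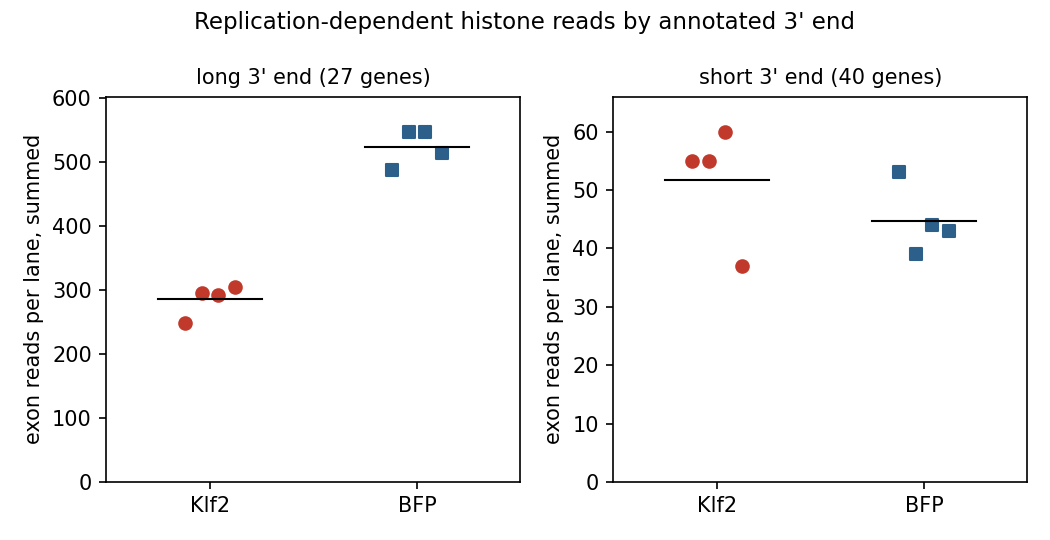
Exon reads per lane summed over replication-dependent genes with a long (27 genes) or a short (40 genes) annotated 3' end. Each point is 1 of 4 lanes of the single library and the bar is the mean of the lanes. The Klf2 lanes hold 249 to 305 reads and the BFP lanes 488 to 548 reads for long ends, while for short ends the lanes overlap at 37 to 60 reads (Klf2) and 39 to 53 reads (BFP).

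A few rows below 1 CPM had intervals that left out 1, and they are named here after their values were seen. Hist1h2bb, shown above with its stem-loop, had 16 reads in the Klf2 library and 4 in the BFP library, and Hist1h2ae had 23 and 8. Hist1h2bg had 3 reads (Klf2) and 17 (BFP). Hist1h2al, Hist1h2bq and Hist2h2aa1 also had fewer reads in the Klf2 library, with no uniquely placed read in any of them. Of the 64 replication-dependent rows with reads, 29 had a higher CPM in the Klf2 library and 35 in the BFP library. The 8 germline histone rows in the table held 2 reads in the Klf2 library, both on Hist1h2ba, and 1 in the BFP library, on H2afb3.

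Most genes of histone mRNA processing and of histone deposition had ratios above 1. Of 26 genes for transcription and 3' processing of histone mRNA none was called, 18 had an interval above 1 and 2 below, and the median log2(CPM + 1) difference was 0.26. Over all rows with at least 1 CPM, 2.45% were called higher and 5.67% lower, the interval lay above 1 in 37.1% and below 1 in 37.3%, and the median was -0.01. Slbp, which encodes the stem-loop binding protein, was at 116 CPM in the Klf2 library and 69.9 CPM in the BFP library, a ratio of 1.66 (1.58 to 1.76). The cap-binding gene Ncbp1 had a ratio of 1.53 (1.47 to 1.59), the cleavage stimulation gene Cstf1 1.39 (1.31 to 1.47), and Lsm10, a subunit of the U7 particle, 0.602 (0.522 to 0.694). Of 25 measured genes for histone chaperones and deposition, 2 were called higher and none lower, and the median difference was 0.47. The interval lay above 1 in 19 and below 1 in 3 (Ubn2, Ubn1 and Vps72). These counts are to be read against the same 2.45%, 5.67%, 37.1% and 37.3% of all rows. Nasp, a chaperone of H3 and H4 and also of linker histones, was at 231 CPM (Klf2) and 107 CPM (BFP), a ratio of 2.15 (2.06 to 2.24). Chaf1b, a subunit of chromatin assembly factor 1 that deposits H3 and H4 on newly copied DNA, had a ratio of 2.09 (1.97 to 2.21). The H2A.Z chaperone gene Anp32e had a ratio of 1.89 (1.84 to 1.93), and Hat1, which acetylates new H4, 1.83 (1.69 to 1.98). The centromeric H3 variant gene Cenpa, outside the rule for members, was at 97.5 CPM (Klf2) and 63.3 CPM (BFP), a ratio of 1.54 (1.45 to 1.63).

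Values of other genes in both libraries are given beside these results, whichever way they went. Of 26 genes of DNA replication, 7 were called higher and none lower, the interval lay above 1 in 25, and the median difference was 0.72, where 2.45% of all rows were called higher, 5.67% lower and 37.1% had an interval above 1. The part of S-phase genes in the histone results was not tested. Other RNAs that lack a poly(A) tail have no exon in the table, so their gene reads were used. The 9 such rows that stand alone, the 7SK RNA gene Rn7sk among them, had 744 gene reads in the Klf2 library and 1007 in the BFP library, a ratio of 0.783 (0.711 to 0.861). Rn7sk had 399 (Klf2) and 730 (BFP) gene reads, a ratio of 0.579 (0.511 to 0.655), and Rpph1, the RNA of RNase P, 326 (Klf2) and 262 (BFP), a ratio of 1.32 (1.12 to 1.56). The part of poly(A) selection in the histone results was not tested, and since the labels name 2 library kits without assigning them, a kit difference and the construct cannot be told apart. Of 6 erythroid markers 1 was called, the globin gene Hbb-bt at 41.3 CPM (Klf2) and 85.9 CPM (BFP), while Hba-a1 and Hba-a2 were at 0, and its part in the H1f0 value was not tested. Only 22.0% (Klf2) and 22.1% (BFP) of the Hbb-bt reads were uniquely placed. The list summed to 42.2 CPM (Klf2) and 86.8 CPM (BFP). T-cell markers (6 rows) summed to 0.469 CPM (Klf2) and 0.418 CPM (BFP), 8 myeloid markers to 3.88 CPM (Klf2) and 5.24 CPM (BFP), and 4 megakaryocyte markers to 1.67 CPM (Klf2) and 2.25 CPM (BFP).

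Promoters of the histone genes share motifs that the name rule did not use. RefSeq promoters (GRCm38.p6), from 250 bases before to 50 after the start site, matched 75 of the 90 rows, and 4 motifs were searched on both strands. The CCAAT motif (letters CCAAT) was found in 85.2% of 61 replication-dependent genes and 41.1% of all 27025 genes with a promoter. Among the replication-dependent genes it was in all 16 for H2B, all 17 for H2A and 3 of 12 for H4. The TATA motif (TATAAA) was in 57.4% of replication-dependent genes, 7.14% of 14 variant genes and 15.7% of all genes. The octamer of histone H2B promoters (ATTTGCAT) was in 7 of 16 replication-dependent H2B and 7 of 17 replication-dependent H2A genes, in no replication-dependent H1, H3 or H4 gene, in 1 of 14 variant genes (H3f3b), and in 1.97% of all genes. Many H2A and H2B genes are arranged as divergent pairs, so that a pair can share a motif. A KLF-type motif (CCNCNCCC), the kind of GC-rich letters that KLF proteins bind, was in 39.3% of replication-dependent genes, 64.3% of variant genes and 51.9% of all genes. Among the replication-dependent genes it was in 10 of 12 for H4 and 2 of 16 for H2B.

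The promoters of the linker histone genes H1f0 and Hist1h1c are printed because both had fewer reads in the Klf2 library, with motif matches in capitals.
H1f0, chr15:79027962-79028261, plus strand: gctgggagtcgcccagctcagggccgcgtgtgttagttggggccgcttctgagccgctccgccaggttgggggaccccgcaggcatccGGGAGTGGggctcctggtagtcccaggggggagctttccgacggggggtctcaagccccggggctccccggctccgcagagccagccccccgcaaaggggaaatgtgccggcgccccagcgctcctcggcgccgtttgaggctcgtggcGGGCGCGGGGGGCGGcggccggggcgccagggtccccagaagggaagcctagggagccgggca
Hist1h1c, chr13:23738557-23738856, plus strand: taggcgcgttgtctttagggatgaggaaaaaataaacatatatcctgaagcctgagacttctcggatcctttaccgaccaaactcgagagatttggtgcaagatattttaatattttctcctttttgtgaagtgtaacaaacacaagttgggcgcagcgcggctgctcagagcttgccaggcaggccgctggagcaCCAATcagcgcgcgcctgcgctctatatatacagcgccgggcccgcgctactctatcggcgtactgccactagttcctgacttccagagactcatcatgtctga
H1f0 has 3 matches to the KLF-type motif, on the minus strand, the last 2 overlapping by 1 base in the capitals near its start site, and no CCAAT. Hist1h1c has 1 CCAAT and no KLF-type match. The number of KLF-type matches did not follow the ratio among the variant genes with at least 1 CPM and a matched promoter. Counting overlapping matches, H2afy (ratio 1.55) has 9, H3f3a 7, H2afz and H2afj 1 each, and H2afv and H3f3b 0. A match is a description of letters and not evidence of binding.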

How the data were processed

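The authors deposited 1 table of counts per gene row and lane, from poly(A) RNA of 8 samples, which are 4 lanes each of the Klf2 and BFP libraries. The submitters' processing notes name CASAVA 1.8.2 and mm10; aligner, counter and strand use are not given by any source used here. All exon reads were the main values, with uniquely placed reads, gene reads and junction reads beside them; 120 further columns (among them RPKM) were not used. On uniquely placed reads, lanes of a library differed by about sampling noise (chi-square per degree of freedom 1.03 for Klf2 and 1.03 for BFP). On all exon reads they differed by somewhat more, at 1.27 (Klf2) and 1.29 (BFP). Over the histone rows alone the values were 1.37 (Klf2) and 1.33 (BFP). All were under the limit of 1.5 set for counting lanes as 1 sample, so lanes were summed. The intervals on all exon reads do not cover that excess. CPM was scaled with TMM (edgeR 4.0.16, R 4.3.3; factors 0.969 for Klf2 and 1.03 for BFP). Ratios have Clopper-Pearson 95% intervals given the summed reads (scipy 1.17.1), and the calling rule was checked on simulated data. Without molecular identifiers, intervals and the limit from 3 reads cover counting error only. Named were all histone rows with at least 1 CPM and up to 4 genes of each list with the largest differences. Members and lists were chosen with earlier results of these data known. Stem-loops came from GENCODE M21 and promoters from RefSeq, both on GRCm38, the assembly called mm10; neither is the authors' annotation. No protein sequences were used, and some marker genes are not reported here by name.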

Additional observations from a re-analysis of the deposited data

Results flagged for a closer look

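Gene reads lay on H3f3c, a variant histone row for which the table has no exon. It had 201 gene reads in the Klf2 library and 136 in the BFP library, a ratio of 1.57 in gene reads, and it was looked at because it lies outside the exon reads used above.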

How the results depend on the processing

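No paired analysis was possible because the lane numbers mark repeat runs of 1 library per group, which leaves no replicates to pair. Without TMM scaling the variant sum had a ratio of 1.12. On uniquely placed reads it was 1.21, the short-end sum 1.66, and the replication-dependent share 1.84% (Klf2) and 3.40% (BFP). On those reads 5 of 9 replication-dependent rows passed the rule, in place of 8 of 11. With gene reads the replication-dependent sum was 0.688, the variant sum 1.17, the long-end sum 0.654, the Klf2 share 1.80%, and Hist1h2be turned to 1.17. With no floor 14 of 64 replication-dependent rows passed, 3 higher and 11 lower. With a floor of 10 CPM 1 of 3 did. At a limit of 1.5-fold, 3 variant rows passed, against 10.2% of all rows higher and 13.9% lower. The long-end sum was 0.706 without Hist1h1c and Hist2h2be and 0.873 over rows under 1 CPM. With a limit of 100 bases the short-end sum was 1.42, with an interval above 1. Leaving out each lane gave 0.606 to 0.624 for the replication-dependent sum and 1.18 to 1.19 for the variant sum. It left 6 to 8 replication-dependent rows past the rule, of 10 to 12 with at least 1 CPM. For the counts on uniquely placed reads, other floors or fewer lanes, the share over all rows was not computed. The cause of these shifts was not tested. The division by 3' end and its alternatives were added after seeing the data. Low reads limit most rows: 53 replication-dependent rows with reads stayed under 1 CPM.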
